A study of Mus musculus with 12 samples.

Results

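Among the tRNA fragments tabulated for mouse sperm, 154 sequences are pieces of the 5′ end of the glutamate tRNA with anticodon CTC that lack 1 or more of its first bases. They were chosen by abundance and then by sequence. The most abundant of all 2971 sequences in the table, ranked by mean normalised level over the 12 libraries, is a 29 nt Glu-CTC fragment at 147849 RPM (reads scaled by the authors to the total of each library). The most abundant sequence of at least 34 nt that begins with it, at 2799 RPM, served as reference. A sequence belongs to the Glu-CTC family if it can be placed inside this reference with at most 2 edits, and it is described here if its first base falls on base 2 of the reference or later. The rule takes 154 of the 822 sequences of the family, and the other 668 are placed from base 1 and called complete below. The levels that selected the first fragment and the reference are a description only, and no group or diet entered the rule.

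Transfer RNAs carry amino acids to the ribosome, and their anticodon loop pairs with the codon. Cleavage in or near that loop releases a 5′ fragment that holds the acceptor strand, the D arm and part of the anticodon arm. In mammals such 5′ fragments of glutamate and glycine tRNAs are the dominant small RNAs of mature sperm, and much of this RNA is known to be gained while sperm pass through the epididymis. A 5′ fragment normally begins at the tRNA's first base, so the sequences described here differ from the main product at the end that is set when the tRNA itself is matured.

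The libraries came from histone replacement-completed sperm (HRCS), sperm in which protamines have taken the place of histones. Sperm were released from the cauda epididymis and vas deferens, sonicated mildly to part heads from tails, and spun through 82% Percoll. Males were wild type or heterozygous for Atf7 (ATF7+/-), the gene of a transcription factor that responds to stress, and were fed control diet or low protein diet between weeks 3 and 12 of age. Each of the 4 combinations of genotype and diet has 3 libraries, numbered 1 to 3 in the labels. The labels do not say whether a library is 1 male or a pool, so the p-values below measure the spread between these libraries, which may be partly technical.

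Fragments are named by position: in 2/31 the first number is the first base on the reference and the second number the last base, so 1/31 is complete at the 5′ end and 2/31 lacks 1 base. A suffix such as +A names a last base that differs from the reference or lies past its end, and the end it follows.

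The family holds a second complete form, which differs from the reference at bases 5 and 6, counted from 1 at the 5′ end. It matters here because its pieces that start at base 3 are placed at base 2 of the reference with 1 edit, and are members. They carry the suffix s below, with the positions on the reference. Each can also be read as a piece of the reference with 1 G fewer, and which reading holds was not tested. The steps from the complete second form are shown because each removes 1 more base. Capitals mark the bases of the second form that stand at positions 5 and 6.
second form, complete, to base 31: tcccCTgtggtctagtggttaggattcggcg
second form from base 2: cccCTgtggtctagtggttaggattcggcg
second form from base 3, member 2/31s: ccCTgtggtctagtggttaggattcggcg
second form from base 4, member 3/31s: cCTgtggtctagtggttaggattcggcg
second form from base 5, member 4/31s: CTgtggtctagtggttaggattcggcg

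The label of the family was checked on its longest sequence without edits, of 36 nt and 721 RPM. Its bases 34 to 36 read CTC, the anticodon. The reference itself ends on base 34, the first anticodon base. RefSeq lists 12 mouse genes for this tRNA on 8 chromosomes, each 72 bp long, and their sequences were not used here, so no fragment was placed on a gene.

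Placed on the reference, most of the members lacked the first base alone. Read on the second form, the members with suffix s at base 2 of the reference lack 2 bases. At base 2 began 112 of the 154, with 91.3% of the members' summed mean level of 26507 RPM. Base 3 was the start of 20 (6.14%), base 4 of 15 (2.24%), base 5 of 3, and bases 6, 7, 10 and 17 of 1 each. In 146 members the first letter was C. Nearly all sequences of the table (2950 of 2971) are 27 to 36 nt long, as are 151 of the members. At 27 nt a start at base 2, 3, 4 or 5 reaches base 28, 29, 30 or 31, and fragments that begin late and end early are largely outside the table.

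The last base lay before base 30 in 47 members (49.1% of the summed level), on bases 30 to 32 in 76 (46.0%) and on base 33 or later in 31 (4.89%). The 24 members without edits carried 56.1%, the 116 with 1 edit 43.4% and the 14 with 2 edits 0.456%. By bases, 41 members were exact pieces of the reference or of the second form and held 88.0%. In another 35 only the last base differed or lay past the end of the reference (9.84%). The remaining 78 held 2.15%. The level was concentrated in few sequences: the 7 most abundant held 76.5%, whereas 77 were under 10 RPM.

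At the edges of the rule, members with 2 edits ranged from 2.7 to 17.9 RPM. The 9 sequences that needed 3 edits and were left out lay between 6.14 and 87.1 RPM, and all of them began at base 1. The start rule keeps out the second form from its own base 2, which is placed at base 1 of the reference with 2 edits and so counts as complete. Its fragments to bases 29, 30 and 31 stood at 4575, 1401 and 1324 RPM.

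The authors' totals ran from 2198744 to 6870039 reads per library, of which the table holds 97.5 to 98.2%. In every pair of replicate libraries the members differed by more than counting error, with a mean squared difference 10.1 to 1023 times the counting variance. A library's 0 reads allows a level of up to 0.437 to 1.36 RPM (3 reads), and folds are left out for members with a group mean under 1.36 RPM. All 154 members passed the filter of a mean of 1 RPM. Intervals and floors here reflect counting error alone, because the reads carry no molecular identifiers and may repeat 1 molecule.

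Libraries 1 and 2 of the control diet, in each genotype, held a larger share of Glu-CTC fragments without the first bases than the other 8 libraries. In wild type on control diet the members made up 18.0, 11.6 and 3.16% of Glu-CTC reads in libraries 1, 2 and 3 (10.9 ± 7.45%, SD, n = 3). On low protein diet the shares were 2.14, 2.66 and 3.25% (2.69 ± 0.553%). Library 3 of the control diet lay among the low-protein libraries, so the groups overlapped.

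In Atf7 heterozygotes the shares were 9.70, 7.16 and 4.39% on control diet (7.08 ± 2.66%) and 4.80, 1.85 and 3.11% on low protein diet (3.25 ± 1.48%). Here too library 3 was the lowest of the control diet, and it fell below low-protein library 1. The widest 95% Wilson interval of any of these shares was 11.57 to 11.70%, so counting error is small beside the distances between libraries. The share of the family in the table moved much less, from 37.5 to 50.02% over the 12 libraries.

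Fragments without the first bases were also counted in the families of Gly-GCC (126 sequences of 1083) and Glu-TTC (55 of 218), by the same rule from the most abundant sequence of each. In Glu-TTC the share was 19.4, 12.7 and 2.24% in wild-type control-diet libraries 1 to 3 and 1.29, 1.75 and 2.43% on low protein diet. In Gly-GCC it was 9.58, 3.14 and 2.96% against 1.72, 2.22 and 2.29%. In heterozygotes on control diet it was 7.01, 5.07 and 4.44% in Glu-TTC and 6.54, 4.85 and 2.59% in Gly-GCC. On control diet library 1 was thus the highest and library 3 the lowest in both of these families and in both genotypes. These differences between families were not tested.

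The most abundant member was 2/29, the main Glu-CTC fragment without its first base. It stood at 17748, 8736 and 3739.7 RPM in wild-type control-diet libraries 1, 2 and 3, whereas the low-protein libraries held 1990.0, 2977 and 3739 RPM. In heterozygotes it stood at 10662, 8187 and 2976 RPM on control diet, whereas the low-protein libraries held 5797, 1693 and 3351 RPM. In wild type control-diet library 3 was level with low-protein library 3, so that the groups met without overlap, and in heterozygotes they overlapped.

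Fragment 2/31 had a wider range. In wild type its level was 10697, 7078 and 1007 RPM on control diet, against 667, 990.2 and 986 RPM. In heterozygotes it was 5474, 4071 and 1535 RPM against 1654, 549 and 1008 RPM. Control-diet library 3 was still just above all low-protein libraries in wild type, but not in heterozygotes.

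Fragment 2/30 was at 9141, 7062 and 875 RPM against 564, 736 and 953 RPM on low protein diet in wild type, and at 3864, 3262 and 1284 RPM against 1333, 447 and 796 RPM in heterozygotes. The shorter 2/28 was at 4122, 1891 and 1119 RPM against 467, 832 and 947 RPM in wild type, with no overlap. In heterozygotes 2/28 was at 2407, 1891 and 798 RPM against 1313, 356 and 738 RPM. Of the 112 members that start at base 2, control-diet library 3 was the lowest of its group in 110 in wild type and in 111 in heterozygotes. Control-diet library 1 was the highest in 105 and 93.

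Set against the complete fragment with the same last base, the loss of the first base depended on where the fragment ended. For each 100 reads of the complete fragment to base 30, wild-type control-diet libraries 1, 2 and 3 held 20.4, 15.3 and 2.11 reads of 2/30, and the low-protein libraries 1.17, 1.60 and 2.02. For base 34 the ratios were 5.31, 2.40 and 0.823 against 0.839, 0.882 and 1.26. The ratios to base 29 were 15.2, 7.54 and 2.24 against 1.26, 1.79 and 2.30. In control-diet libraries 1 and 2 of wild type the ratio was highest at base 30 and lowest at base 34 of the last bases 28 to 34. In all 3 heterozygous control-diet libraries it was highest at base 31, at 9.92, 7.04 and 6.70 on control diet against 4.83, 1.56 and 2.92 on low protein diet, where the groups did not overlap. At base 29 heterozygous control-diet library 3 was at 2.03 and at base 31 at 6.70, so this library stood out from the low-protein ones at base 31 and not at base 29.

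The fragments with suffix s below were more frequent, relative to those without it, than the complete second form was relative to the complete reference form. Which reading of these fragments holds was not tested, so their origin in the second form is not shown. Read on the second form, they lack more bases than their counterparts on the reference. Over the 12 libraries and 8 last bases, complete fragments of the second form numbered 4.80 to 6.21 per 100 of the reference form. Among fragments placed at base 2, the ratio of 2/29s to 2/29 was 61.0 to 74.1 per 100, that of 2/30s to 2/30 was 58.9 to 80.2 and that of 2/31s to 2/31 was 60.1 to 78.1. At base 4 the ratio of 4/31s to 4/31 was 69.7 to 108. Members nearer to the second form made up 30.8 to 34.9% of member reads in the 12 libraries.

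Read on the second form, starts at base 2 and base 3 behaved unlike each other across the libraries. With last base 29, the fragment from base 2 (not a member) stood at 54.6 to 57.0 per 100 of the complete second form in all 12 libraries. The fragment from base 3, which is member 2/29s, stood at 180, 80.6 and 26.5 per 100 in wild-type control-diet libraries 1 to 3 and at 16.8, 23.0 and 29.2 on low protein diet. In heterozygotes it stood at 89.9, 63.0 and 25.7 against 42.7, 15.8 and 27.9. In RPM, 2/29s was at 10983, 5325 and 2539.5 against 1475, 2026 and 2680.5 in wild type, and at 6767, 5283 and 2167 against 3894, 1233 and 2261 in heterozygotes. Control-diet library 3 lay below 1 low-protein library in wild type and below 2 in heterozygotes. The table holds 7 exact pieces of the second form placed at base 2 of the reference. For 0 of these does it hold the same sequence with the reference's first base added.

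Fragments placed at base 3 of the reference differed from those placed at base 2 in the heterozygous control-diet libraries. Fragment 3/29 was at 744, 513 and 432 RPM on control diet in wild type, against 294, 344 and 383 RPM with low protein, and at 421, 355 and 579 RPM against 323, 204 and 254 RPM in heterozygotes. The groups did not overlap in either genotype. Heterozygous control-diet library 3, the lowest for starts at base 2, was here the highest of its group. Among the 20 members that start at base 3 it was the highest in 11 and the lowest in 7. Their summed level there was 2596 RPM, against 1599 and 1559 RPM in libraries 1 and 2. Fragment 3/31s was at 426, 316 and 107 RPM against 81.6, 93.9 and 92.9 RPM in wild type, and at 199, 180.3 and 276 RPM against 80.8, 43.2 and 51.5 RPM in heterozygotes. Control-diet libraries lay above all low-protein libraries in both genotypes.

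The most abundant fragments from base 4 lay close together in wild type. Fragment 4/30 was at 189, 187 and 213 RPM on control diet, against 169, 152 and 173 RPM. In heterozygotes it was at 132, 153 and 243 RPM against 114, 83.3 and 96.4 RPM. The low-protein libraries were below the control-diet ones in both genotypes, and in heterozygotes the distance rested partly on control-diet library 3. Summed over the 15 members that start at base 4, wild-type libraries held 572 to 830 RPM and heterozygous libraries 324 to 708 RPM. Others spread more widely, such as 4/34, which ranged from 6.36 to 44.3 RPM over the wild-type libraries and was chosen after its values were seen. In wild type control-diet library 3 was the highest of its group in 11 of these 15, the reverse of its place among starts at base 2.

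Fragment 4/31 was at 102, 97.2 and 128 RPM against 108, 115 and 86.9 RPM in wild type. In heterozygotes it was at 101, 95.1 and 119 RPM against 64.0, 42.2 and 48.1 RPM, with no overlap. Its shorter relative 4/31s was at 97.0, 97.2 and 104 RPM against 92.2, 91.5 and 93.8 RPM in wild type, and at 70.6, 74.8 and 91.4 RPM against 49.5, 36.1 and 40.0 RPM in heterozygotes. Heterozygous low-protein libraries were the lowest of the 4 groups for both.

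Starts beyond base 4 were rare and came at low levels. Fragment 5/31 was at 28.0, 26.2 and 26.5 RPM against 25.01, 33.4 and 18.2 RPM in wild type, and at 17.7, 21.5 and 14.6 RPM against 16.2, 10.2 and 12.1 RPM in heterozygotes. The groups of each genotype overlapped. Fragment 7/33 was at 15.8, 15.2 and 30.5 RPM against 21.1, 39.3 and 26.1 RPM in wild type, and at 14.7, 15.1 and 27.3 RPM against 20.3, 10.5 and 15.0 RPM in heterozygotes, also with overlap. The 2 members that begin furthest in, at bases 10 and 17, are 20 and 15 nt long and had means of 4.99 and 4.79 RPM. They are shown because their length is outside the range of nearly all other sequences. Fragment 7/33, of 27 nt, is within that range and is shown beside them. The first base is in capitals.
start 7, 7/33: Gtggtctagtggttaggattcggcgct
start 10: Gtctagtggttaggattcgg
start 17: Ggttaggattcggcg

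The 2 fragments below, whose last base differed, had high levels in control-diet libraries 1 and 2, as 2/29 and 2/30 had. Fragment 2/29+T was at 2000.0, 1328 and 129 RPM against 77.2, 103 and 143 RPM in wild type, and at 521, 462 and 192 RPM against 221, 72.9 and 148 RPM in heterozygotes. Fragment 2/30+A was at 1927, 1119 and 128 RPM against 92.2, 120.0 and 122 RPM in wild type, and at 691, 483 and 227 RPM against 239, 83.3 and 144 RPM in heterozygotes. Both had a control-diet library 3 close to the low-protein libraries in wild type. Last bases that replace the base of the reference were A in 10 members (1518 RPM), T in 11 (862 RPM), C in 5 (122 RPM) and G in 3 (17.8 RPM). Members with a last base that differed or lay past the reference made up 8.20 to 11.9% of member reads over the libraries. Complete fragments of this kind made up 10.9 to 15.2% of complete reads. Substitutions inside the fragment were rare, and the most frequent was carried by 0.172% of the members' summed level.

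Between the diets in wild type, 15 of the 154 members were called lower on low protein diet and 0 higher, which is 9.74% beside 2.36% of all 2971 sequences (edgeR quasi-likelihood test, two-sided, Benjamini-Hochberg adjusted over all sequences, threshold 0.05). All 15 start at base 2 and end on bases 30 to 32. Fragment 2/30 fell from 5693 ± 4299.9 to 751 ± 195 RPM (log2 fold change −2.92, SE 0.70), 2/30s from 3449 ± 2576 to 544 ± 125 RPM (−2.66, SE 0.65) and 2/29+T from 1152 ± 948 to 108 ± 33.3 RPM (−3.41, SE 0.77). Each of these 3 had an edgeR adjusted p of 0.0486. Fragment 2/30+A fell by 3.24 (SE 0.74) and 2/29+A by 3.46 (SE 0.72) on the log2 scale, at the same adjusted p. The largest fall for which a fold is given was that of 2/31 with T19C, from 28.0 ± 22.6 to 1.74 ± 0.864 RPM (−3.82, SE 0.84).

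Of the 15 called members, 4 had too few reads on low protein diet for a fold. Among them, 2/31s with T19C went from 16.9 to 0.900 RPM, 2/30 with T26C from 11.7 to 0.932 RPM and 2/30 with T8C from 10.04 to 0.668 RPM. Substitutions are counted on the reference. The sequence of the first is given with the substituted base in capitals.
2/31s with T19C: ccctgtggtctagtggCtaggattcggcg

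The 3 most abundant members, 2/29, 2/29s and 2/31, were not among the calls. Fragment 2/29 had a log2 fold change of −1.80 (SE 0.59, edgeR adjusted p 0.0936), 2/29s of −1.61 (0.110), 2/31 of −2.83 (0.0527) and 2/28 of −1.67 (0.102). The median of all 154 members was −1.87, with 127 negative, against −0.09 over all sequences and 0.15 over complete Glu-CTC fragments. By start the medians were −2.19 at base 2, −1.04 at base 3 and 0.31 at base 4. By last base they were −1.81 before base 30, −2.40 on bases 30 to 32 and 0.31 from base 33 on. Over the 41 exact pieces, which held 88.0% of the summed level, the median was −0.25, with 24 negative. Over the 24 members of at least 100 RPM it was −1.80, with 24 negative. Of the 15 calls, 2 were exact pieces, and in 5 only the last base differed. All low-protein libraries lay below all control-diet libraries in 48 members (31.2%), beside 11% of all sequences. These 48 comprised 38 that start at base 2, 7 at base 3 and 3 at base 4.

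Leaving out 1 library gave 100 calls (64.9% of members) without wild-type control-diet library 3, beside 19.4% of all sequences, and 29 (18.8%) without heterozygous control-diet library 3, beside 4.51%. On omission of any 1 of the 10 others 0 members and 0 sequences were called. Without control-diet libraries 1 and 2 of both genotypes, 1 control-diet library is left in each. These libraries were left out because their levels were high, and the single library is assumed to vary like the low-protein groups, so the values describe that library and are no test. The median at base 2 was then −0.19, 2/30 was at −0.22 and 0 members were called.

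Between the diets in heterozygotes 0 members were called, beside 0.0337% of all sequences called lower. An unadjusted edgeR p under 0.05 was found for 66 of 154 members, beside 501 of all 2971 sequences. DESeq2 called 10 members (6.49%, beside 1.51% of all sequences) and limma 0. The 4 members with the smallest p start at base 3 or 4. Among them, 3/31s went from 218 ± 50.8 to 58.5 ± 19.7 RPM (−1.90, SE 0.42), 4/31s from 78.9 ± 11.02 to 41.9 ± 6.89 RPM (−0.91, SE 0.21) and 4/31 from 105 ± 12.2 to 51.4 ± 11.3 RPM (−1.03, SE 0.23). All 3 had an edgeR adjusted p of 0.180. Fragment 2/29 had −1.01 (SE 0.58, edgeR adjusted p 0.355) and 2/30 had −1.71 (SE 0.66, 0.271).

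The median over the members was −1.19 in heterozygotes, with 146 negative, against 0.03 over all sequences. It was −1.35 at base 2, −0.81 at base 3 and −0.16 at base 4. Over the 41 exact pieces it was −0.91, with 37 negative. The groups did not overlap, with low protein lower, in 38 members (24.7%), beside 8.25% of all sequences. Of the 20 members that start at base 3, 14 were among them, and of the 112 at base 2, 20. With control-diet library 3 as the only one of its group, 3/31s was at −2.24 and 2/29 reversed to 0.28, again as a description of that library. The same setting called 11 members (7.14%), beside 2.39% of all sequences. Leaving out wild-type control-diet library 1 or 3 or heterozygous control-diet library 3 gave 1, 8 and 6 calls (0.649, 5.19 and 3.9% of members), beside 0.37, 0.64 and 2.39% of all sequences.

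Over both genotypes, as the mean of both diet effects, 86 members were called lower and 0 higher, 55.8% beside 10.3% of all sequences. They comprised 72 members that start at base 2, 11 at base 3 and 3 at base 4. The most abundant members were called here: 2/29 with −1.40 (SE 0.41, edgeR adjusted p 0.0436), 2/31 with −2.31 (SE 0.49, 0.0201), 2/30 with −2.31 (SE 0.48, 0.0199) and 2/28 with −1.37 (SE 0.39, 0.0400). Among later starts 3/29 fell by 0.76 (SE 0.20, edgeR adjusted p 0.0301), 3/31s by 1.78 (SE 0.29, 0.0199) and 4/31 by 0.55 (SE 0.16, 0.0454). Fragments 4/30 (−0.55, edgeR adjusted p 0.0596), 5/31 (−0.28, 0.396) and 7/33 (0.10, 0.896) were not called. Of the members that end on bases 30 to 32, 65 of 76 were called, of those that end earlier 20 of 47, and of those that end later 1 of 31. The median was −1.46 with 140 negative, against −0.01 over all sequences. Over the 41 exact pieces it was −0.55, with 32 negative, and over the 24 members of at least 100 RPM −1.61, with 24 negative.

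The number of calls over both genotypes depended on single libraries. It was 0 on omission of any 1 of wild-type low-protein libraries 1 and 2 and heterozygous low-protein libraries 2 and 3. Omitting wild-type control-diet library 1 or 2 gave 28 or 46 calls (beside 3.43 or 7.51% of all sequences), omitting heterozygous library 1 or 2 of that diet 19 or 37 (beside 1.88 or 5.39%), and omitting wild-type low-protein library 3 gave 38 (beside 6.09%). With control-diet library 3 alone in each genotype 7 members were called (4.55%), beside 1.82% of all sequences, and the median at base 2 was −0.06. That members as a group were lower on low protein diet was known from these data when they were chosen, so these counts are no independent evidence of the direction.

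Between the genotypes on control diet 0 members were called in either direction, beside 0.0% of all sequences. An unadjusted edgeR p under 0.05 was found for 8 of 154 members, beside 125 of all 2971 sequences. The count of called members by DESeq2 or by limma was also 0. The member median was −0.55, with 139 negative, against −0.05 over all sequences. The smallest p belonged to a 33 nt fragment from base 4 that runs past the reference, with 7.74 ± 6.26 RPM in wild-type and 2.26 ± 0.416 RPM in heterozygous libraries (−1.62, SE 0.54, edgeR adjusted p 0.965). Fragment 2/29+A was at 304 ± 248 and 103 ± 40.2 RPM (−1.55, SE 0.66). Between library 3 of wild type and library 3 of heterozygotes alone, 1 library against 1, the difference was 0.62.

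On low protein diet, 15 of the 15 fragments from base 4 and 18 of the 20 from base 3 had a negative fold change in heterozygotes against wild type, beside 30 of 112 from base 2. Among complete Glu-CTC fragments 529 of 668 were also negative, and among all sequences 1246 of 2971. Of all members 1 was called, 4/31s, which fell from 92.5 ± 1.19 to 41.9 ± 6.89 RPM (−1.14, SE 0.21, edgeR adjusted p 0.0463). This is beside 0.0673% of all sequences called lower. Next in order and not called were 3/34 at 22.1 ± 11.3 and 6.67 ± 1.45 RPM (−1.69, SE 0.37) and 3/34s at 15.8 ± 2.37 and 6.20 ± 0.637 RPM (−1.31, SE 0.30), both with an edgeR adjusted p of 0.0937. The medians were 0.25 at base 2, −0.68 at base 3 and −0.96 at base 4, against 0.11 over all sequences and −0.22 over complete Glu-CTC fragments. Heterozygous libraries lay below all wild-type ones in 32 members (20.8%), beside 14.2% of all sequences, and above them in 2, beside 21.3%. The 32 comprised 13 of the 15 members at base 4, 12 of 20 at base 3, 4 of the 7 at base 5 or later and 3 of 112 at base 2.

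All heterozygous low-protein libraries were deeper (at least 4828916 reads) than all wild-type ones (at most 2874170 reads), so depth and genotype cannot be told apart in this comparison. The call of 4/31s was lost without any 1 of 9 libraries: all 6 on low protein diet, wild-type control-diet library 2 and heterozygous control-diet libraries 1 and 2. Its log2 fold change lay between −1.28 and −1.04 over all 12 omissions. Without control-diet libraries 1 and 2 of both genotypes 22 members (14.3%) were called, close to the 12.4% of all sequences called there.

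The diet effects of the genotypes were compared by their interaction, which called 0 members, beside 0.0% of all sequences. An unadjusted edgeR p under 0.05 was found for 12 of 154 members, beside 292 of all 2971 sequences. The count of called members was also 0 with DESeq2 and with limma. The smallest p was that of the 33 nt fragment 2/34s+T, whose T lies past the end of the reference. It went from 14.1 ± 3.59 to 22.3 ± 6.85 RPM with low protein in wild type. In heterozygotes it went from 25.4 ± 14.3 to 9.86 ± 2.40 RPM. Its interaction was −2.03 (SE 0.60, edgeR adjusted p 0.340). Fragment 4/31 had an interaction of −0.95 (SE 0.33, edgeR adjusted p 0.468) and 2/29 of 0.79 (SE 0.81, 0.728). The medians were 0.86 at base 2, −0.20 at base 3 and −0.59 at base 4, against 0.15 over all sequences. By edits they were −0.43 over the 24 members with 0 edits, 0.77 over the 116 with 1 and 0.55 over the 14 with 2. A difference between the genotypes in how these fragments respond to diet was thus not shown for any single member, and for 2/29 the standard error was as large as the effect.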

How the data were processed

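The deposited table gives, for each tRNA fragment sequence, the counts of reads per library as the authors made them, and beside them RPM, which are those counts divided by the library total. Reads were mapped to mm10, per the submitters' processing notes, with an aligner and counter not given in the sources used here. The library kit was NEBNext small RNA and reads were 36 bp paired-end, per the labels' protocols. Members were placed on the reference with edlib 1.3.9.post1. Members and lists were chosen with earlier results of these data known. All 2971 sequences were fitted in 1 model of the 4 groups with edgeR 4.0.16 (quasi-likelihood test, R 4.3.3) on the deposited counts, with the authors' totals as library sizes and Benjamini-Hochberg adjustment at 0.05, and the script was tested on simulated data. The SE given with an edgeR log2 fold change was derived from the test. It is the absolute log2 fold change divided by the square root of the quasi-likelihood F statistic. A filter of a mean of 1 RPM removed 0 sequences, and the biological coefficient of variation was 0.326. Depth was 2198744 to 6870039 reads per library. Members were named by a rule: the 10 of highest mean level, the highest at each start, and per comparison the 5 called members with the largest falls or rises, or the 3 with the smallest p where fewer than 3 were called. The 2 short members and the neighbours of the rule were named after their values were seen. Alternatives used TMM scaling, DESeq2 1.42.0, limma 3.58.1 on log2(RPM + 1), other filters, fewer libraries and the replicate number as a block. Only between the control-diet groups was r positive for all 3 same-numbered pairs over all sequences (r = 0.547, 0.143 and 0.522). This was taken as pairing for the genotype comparison on that diet, though no label gives a pairing. Over the members alone, r for library 2 of these groups was −0.035. Library 1 of wild type on control diet and of heterozygotes on low protein diet had an r of 0.583 over all sequences. The number of sample columns left unused was 0. The sequences of the reference form are not reported here.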

Additional observations from a re-analysis of the deposited data

How the results depend on the processing

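TMM scaling changed no count of called members by more than 1.5 times. Dropping the filter of 1 RPM repeated the main fit, because that filter removed 0 sequences. In wild type the diet comparison called 78 members with DESeq2 (50.6%, beside 327 of all 2971 sequences). It called 0 with limma, with a filter of 10 RPM, or with only the 6 libraries compared. On omission of 1 library it called 0 to 100. In heterozygotes it called 10 with DESeq2 (6.49%, beside 1.51%). On omission of 1 library it called 0 to 8 there, the latter 5.19% beside 0.64%. Over both genotypes it called 0 with limma. With a filter of 10 RPM it called 34 (44.2% of the 77 members kept, beside 182 of 1817 sequences). On omission of 1 library it called 0 to 118, the latter 76.6% beside 714 of all 2971 sequences. Genotype on low protein diet called 11 with DESeq2 (7.14%, beside 2.49% of all sequences) and 22 in its 6 libraries alone (14.3%, beside 12.5%). On omission of 1 library it called 0 to 4, the latter 2.6% beside 0.74%. The interaction then called 0 to 1, the latter 0.649% beside 1.31%. Genotype on control diet called 0 throughout. The cause was not tested.

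With the replicate number as a block (replicate block), diet in wild type called 20 members (13.0%, beside 2.69% of all sequences). Diet over both genotypes called 82 (53.2%, beside 12.0%). Genotype on low protein diet and the other comparisons called 0. In the 6 control-diet libraries, where the numbers were taken as pairing, the block also called 0.

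Leaving out control-diet libraries 1 and 2 of both genotypes, chosen after seeing the data, leaves 1 control-diet library per genotype, assumed to vary like the low-protein groups, and so describes that library. It gave 0 calls for diet in wild type, 11 in heterozygotes, 7 over both and 22 for genotype on low protein diet. Log2 fold changes that changed sign there were, for diet in heterozygotes, 2/29 (0.28), 2/29s (0.18), 2/28 (0.008) and 2/28+A (0.34), 7/33 for diet in wild type (−0.069), 2/29+A for genotype on control diet (0.62) and, for diet over both genotypes, the 30 nt member with G29A (1.13), whose levels are under the floor for a fold and whose only heterozygous control-diet library there holds 0 reads. On omission of 1 library, 5/31 for diet in wild type ranged from −0.31 to 0.12 and 7/33 for diet in heterozygotes from −0.55 to 0.026. The cause was not tested.

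The member share of Glu-CTC reads, counting starts from base 3 on, was 0.770, 0.442, 0.613 and 0.300% for wild type (control, then low protein) and heterozygotes (same order). With all reads of the table as denominator it was 4.99% in wild type on control diet, 1.26% in wild type on low protein diet, 3.23% in heterozygotes on control diet and 1.35% in heterozygotes on low protein diet. Members with 0 edits gave 1.51% in wild type on low protein diet and 4.004% in heterozygotes on control diet. Placing each sequence on the nearer complete form gave 4.87% for wild type and 5.40% for heterozygotes, both with low protein. On omission of 1 library the group means ranged from 7.40 to 14.8% and from 2.40 to 2.96% in wild type, and from 5.77 to 8.43% and from 2.48 to 3.95% in heterozygotes, on control and low protein diet. Low levels limit 77 members under 10 RPM.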
